A study of Rattus norvegicus with 27 samples.

Results

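The subject here is a set of CpG positions of the rat genome that drew far more reads than others in reduced representation bisulfite sequencing (RRBS) of the kidney. Members are autosomal positions with 10 or more counts in each of 12 libraries whose count was at least 5 times the library's median in each of those 12 libraries. There were 15463 such positions among 1188788 autosomal positions with 10 or more counts in every library, and 5477824 positions were listed in all. The members were thus chosen by their read counts, so their depth is a description, while the methylation level at a position took no part in the choice.

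Each library is the renal outer medulla of 1 Dahl salt-sensitive (SS) rat, an inbred line that becomes hypertensive on dietary salt. All 7 groups are SS rats, and the GapmeR experiment (12 rats) used the MCW SS strain. HS_DT rats (n = 4) were given GapmeRs, antisense oligonucleotides delivered into the kidney, against Dnmt3a and Tet3 at 2 mg/kg each, together with a 4% NaCl diet whose duration is written as 7 with no unit. HS_SCR rats (n = 4) were given a scrambled GapmeR at 4 mg/kg and 4% NaCl over 7 days. The 0.4% salt rats (n = 4) underwent the same surgery and were sampled before GapmeR and high salt would have started. The other experiment (15 rats) compared MCW SS and CRL SS rats. MCW HS (n = 4) and CRL HS rats (n = 4) were fed purified AIN-76A chow containing 4% NaCl over 14 days, starting at an age of 6 weeks. MCW LS rats (n = 3) ate AIN-76A with 0.4% NaCl up to 8 weeks of age, and CRL LS rats (n = 4) ate the non-purified 5L2F diet with 0.75% NaCl, so in CRL rats salt and base diet cannot be told apart. The outer medulla holds several cell types, and whether a level differs within cells or through their proportions cannot be told apart. Dnmt3a adds methyl groups to unmethylated DNA and Tet3 oxidises methylcytosine, and neither transcript was measured here.

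RRBS cuts DNA with MspI, which recognises a site that contains a CpG, and sequences the short fragments. Compared with a single-copy fragment, a sequence that occurs many times in the genome can yield many more reads. Satellites, ribosomal RNA genes and transposable elements are such sequences, and in mammals most transposable elements carry dense CpG methylation. Reads from near-identical copies can be placed at any of them, and an assembly may hold fewer copies than the animal does. A level at such a position is then an average over copies. No annotation of the rn5 assembly was used here, so no repeat class or gene is given to any member and no sequence is printed.

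Total CpG counts per library were 174400859 to 257658964 in the 12-rat table and 35040331 to 95102303 in the 15-rat table. The members, 1.30% of the autosomal sites compared, held 33.8 to 44.2% of those counts per library in the 12-rat table. In the other table the members with 10 or more counts in every library numbered 15090, and these held 37.2 to 46.0%. The count at a member was 330 to 67937 in the 12 libraries. Its median multiple of the library median was 5.33 at the least, 18.5 in the middle and 564 at most. Counting error is therefore small at these sites, and the depth of the 15-rat table was lower.

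The members formed 1802 clusters, with neighbours up to 1000 bp apart joined. Of these, 199 were single CpGs, and the median cluster held 4 members. Only 7 clusters held 100 or more members, but together they had 6162 members. Chromosome 1 carried 3558 members and chromosome 14 carried 3412, which is 23.01% and 22.1% of all members. At the threshold, the CpGs at 13497988 and 13558985 of chromosome 1 stood just inside, at 5.00 times the median in their lowest library and 10.4 times over the 12. Just outside stood 3 CpGs of chromosome 17, of which the one at 5202572 reached 4.99 times the median in its lowest library and 5.63 over the 12.

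CpG spacing, which the choice of members did not use, recurred across much of the set. A run of 8 successive distances between listed CpGs was treated as a signature of the underlying sequence, read in either direction. Such a run recurred elsewhere for 83.9% of the 13762 runs centred on a member, against 14.1% of 1580546 runs centred on other CpGs. Joining clusters that shared a run gave 930 families, of which 201 linked 2 or more clusters.

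The largest, called family 1 here, held 6844 members (44.3%) in 21 clusters. They lay on chromosome 14 (2956 members), chromosome 1 (1936), chromosome 5 (1100), chromosome 6 (768), chromosome 19 (73) and chromosome 7 (11). Its largest cluster ran from 46808760 to 46835089 of chromosome 14 (rn5) with 1660 members among 2578 listed CpGs, or 97.9 listed CpGs per kb. The next was on chromosome 5, from 95165563 to 95180716, with 1100 members. A pair followed on chromosome 1, from 13550486 to 13564800 (987 members) and from 13497175 to 13510418 (949 members). Family 1 alone took 27.4 to 39.8% of all counts in the 12 libraries, at a median of 94.8 times the library median.

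Within the 7 largest clusters, 6.85 to 51.3% of the spacing runs were found more than once, some of them at a shared distance. The share was highest in the largest chromosome 14 cluster (2530 runs), with 134 runs at 1954 bp, 82 at 2224 bp and 70 at 2102 bp. In the chromosome 5 cluster (29.3% repeated) 212 runs recurred at 2018 bp. In the chromosome 1 cluster that starts at 13497175 (19.6%) there were 106 at 1691 bp. In the other chromosome 1 cluster (9.82%) 71 runs recurred at 880 bp, and none of the 7 largest clusters held a run in both reading directions. The commonest distance thus differed between clusters.

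Many members carried nearly the same counts as other members. Across the 12 libraries 4734 members (30.6%) had a twin with equal methylated and unmethylated counts in every library, in 1841 groups of up to 6. Of these groups 1256 spanned 2 or more chromosomes. Whether the same reads were counted at several copies was not tested. A twin was found for 42.4% of family 1 and 21.2% of the other members. With sites of 50 or more counts and a level of 5 to 95% only, 31.5% of 12971 members had a twin, against 7.78% of 205223 other sites. Counting as 1 the members whose counts lay within 5% and whose levels lay within 2 points in all 12 libraries left 6858 patterns. The largest pattern joined 112 family 1 CpGs in 6 clusters on 4 chromosomes, with a level of 9.22% ± 2.55 (SD over 12 rats). Because links were chained, its levels ranged over up to 8.69 points within a rat.

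A stretch on chromosome 1 shows this at single CpGs. From 13564311 to 13564384 it held 16 CpGs in 74 bp, each with a median count of 45033 to 45147. The mean level was 7.43% at the second CpG and 22.2% at the eighth. The distances between these CpGs recurred 880 bp away, and there no level differed by more than 0.0568 points and no median count by more than a ratio of 1.001. Where the same reads were placed at both copies, equal values there follow from the placement, which was not tested. The plot of levels along this stretch shows the pairs.

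**Figure D1:**
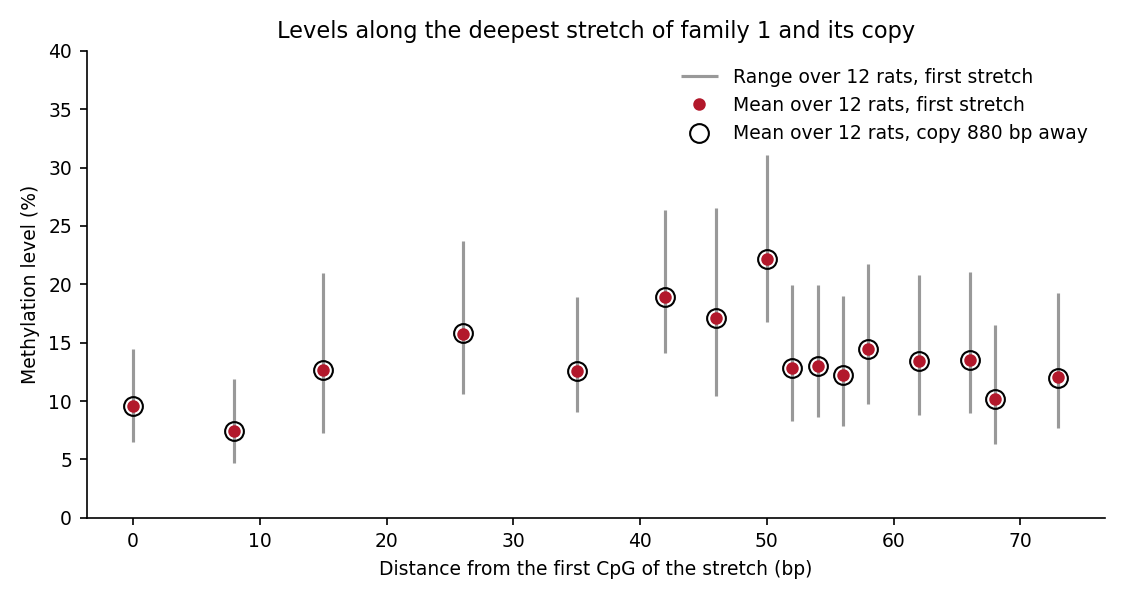
Methylation level (%) of the 16 CpGs of the deepest family 1 stretch against distance in bp from its first CpG, with filled circles for the mean over 12 rats, grey lines for the lowest to highest rat, and open circles for the copy 880 bp away. The open and filled circles coincide, whereas levels change between CpGs from 7.43 to 22.2%.

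More generally, 10340 pairs of neighbouring members up to 20 bp apart had a median ratio of counts of 1.002. Of these pairs 68.7% lay within 1% in count, but 15.6% differed by over 1.5 times. They differed in level by a median of 3.68 points. Over 5138 pairs of family 1 copies matched by spacing, the median difference in level was 0.0572 points, and 87.6% of pairs lay within 2 points. Over 3035 pairs of copies outside family 1 it was 0.377 points, with 66.6% within 2 points. Depths agreed less often, lying within 5% in 61.3% of the family 1 pairs and 50.8% of the pairs outside it.

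The members fell into populations of different methylation. Among them 10.3% had a mean level under 5%, against 52.8% of the other autosomal sites. Levels of 5 to 20% held 40.8% of the members and 6.25% of the other sites, and this class was mostly family 1, of which 84.3% lay there. Outside family 1 only 6.32% of members lay from 5 to 20%, while 35.4% lay from 80 to 95% and 10.5% at 95% or more. The 8619 members outside family 1 averaged 62.9% ± 0.189 (SD, n = 12 rats), against 12.7% ± 3.40 in family 1 and 29.2% ± 0.189 at the 1173325 other sites.

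**Figure D2:**
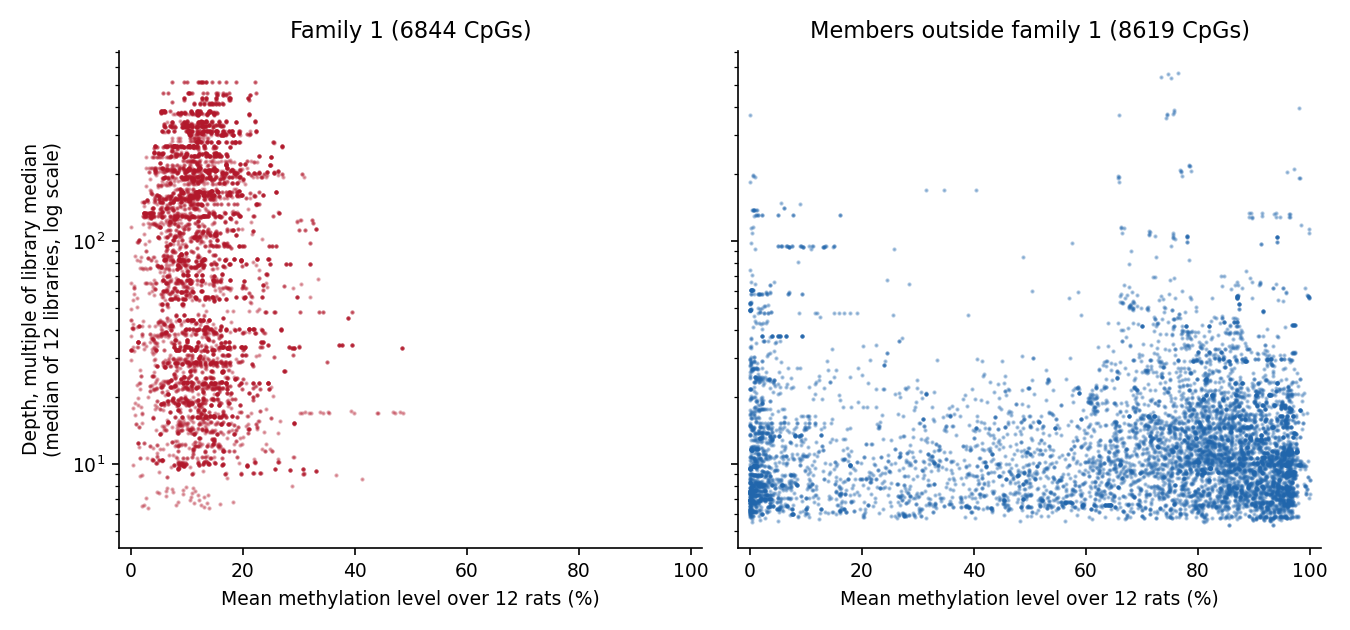
Each point is a member, placed by its mean methylation level over 12 rats (%) and its depth as a multiple of the library median on a log axis, with family 1 on the left and all other members on the right. Family 1 fills the range below 50%, while the other members gather near 0% and above 60% and reach the greatest depth, 564 times the median, at 76.6%.

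Outside family 1 the families were smaller, and 729 of all 930 families held a single cluster. Most of the largest were highly methylated. Family 2 had 1179 members in 219 clusters of at most 15 members on 19 chromosomes, and its level was 73.5% ± 0.319 (SD over 12 rats). It held the deepest CpGs of all. The CpG at 5715326 of chromosome 1 had 29411 to 67937 counts and a level of 76.6% ± 0.502 (range 75.7 to 77.1%). Families 4 (289 members, 13 chromosomes) and 6 (162 members, 7 chromosomes) stood at 84.0% ± 0.227 and 87.6% ± 0.195. A pair of families on single chromosomes had low levels instead. Family 5 held 213 members in 5 clusters of chromosome 13 at 2.34% ± 0.122. Family 8 held 119 members in 2 clusters of chromosome 4 at 17.5% ± 0.393, although its median site stood at 3.65%.

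The same positions were also deep in the 15 libraries that took no part in their choice. All 15463 members were listed there, and 7408 of the 15090 with enough counts (49.1%) reached 5 times the median in all 15 libraries. This held for 83.5% of family 1 and 21.3% of the other members, and for 0.386% of 440469 other sites common to both tables. The median multiple was 64.5 in family 1 and 4.22 outside it. Levels differed little between the tables, with 11.4% ± 3.59 in family 1 and 62.7% ± 0.380 outside it (SD over 15 rats). The tables were made separately, so no test was run across them.

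The level of family 1 varied between rats of the same group. HS_DT rats had mean levels of 12.5, 11.1, 12.4 and 16.9%. HS_SCR rats had 18.7, 17.6, 7.98 and 11.4%. Rats on 0.4% salt had 11.3, 10.7, 8.67 and 13.03%. The highest and the lowest of the 12 rats were thus both HS_SCR rats, and all 3 groups overlapped.

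MCW HS rats had 5.55, 15.2, 14.8 and 9.50%, against 5.40, 6.33 and 14.7% in MCW LS rats. CRL HS rats had 11.5, 14.0, 17.2 and 11.1%, against 11.3, 10.9, 10.9 and 12.99% in CRL LS rats. Both MCW groups held rats near 5% and rats near 15%, and the groups overlapped in each comparison. Outside family 1 the 27 rats lay between 62.2 and 63.3%.

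**Figure D3:**
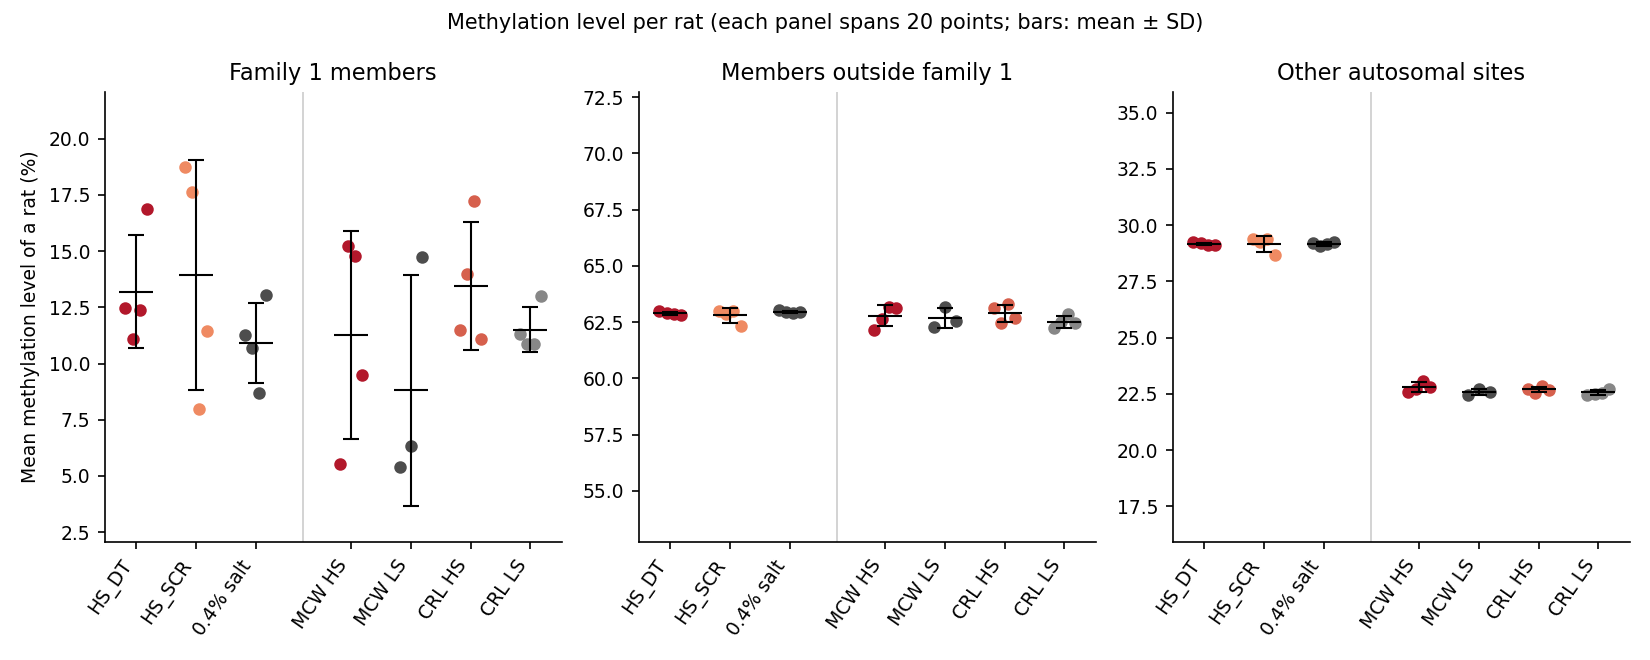
Mean methylation level (%) of each rat (points) in 7 groups, with the group mean and SD as bars, for family 1 (left), the other members (middle) and the remaining autosomal sites (right). All panels span 20 points, and the grey line separates the 12-rat from the 15-rat table, whose sites differ. Family 1 spreads from 5.40 to 18.7% across rats, while the other members stay between 62.2 and 63.3%.

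The same rats stood highest and lowest in most family 1 clusters. HS_SCR replicate 1 was the highest of 12 rats in 17 of the 21 family 1 clusters and at 72.7% of family 1 CpGs. HS_SCR replicate 3 was the lowest in 18 clusters and at 64.9% of CpGs. On chromosome 14 these rats had 19.1 and 8.07%, and on chromosome 6 they had 19.3 and 8.49%. In the 15-rat table CRL HS replicate 3 was the highest in 15 clusters, and MCW LS replicate 1 and MCW HS replicate 1 were the lowest in 11 and 9. Among the clusters that differed, that on chromosome 1 from 13497175 to 13510418 was lowest in 0.4% salt replicate 3. Chromosome 7 has only 11 members, which stood near 4% and gave 4.55 and 3.81% in HS_SCR replicates 1 and 3. Its cluster from 2201659 to 2201690, of 2 members, was reversed, with HS_SCR replicate 3 highest and replicate 1 lowest. In its cluster from 2197653 to 2197818 HS_DT replicate 4 was highest and 0.4% salt replicate 1 lowest. Clusters whose CpGs carry equal counts are not separate measurements.

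In proportion, methylated counts varied more than unmethylated counts. Per 100 counts off the members, family 1 drew 3.34 to 13.6 methylated counts in the 12 libraries, a ratio of 4.06, and 38.1 to 57.8 unmethylated counts, a ratio of 1.52. In both cases HS_SCR replicate 3 was lowest and HS_SCR replicate 1 highest. In the 15 libraries the ratios were 4.02 for methylated and 1.36 for unmethylated counts. In number of counts, the range of unmethylated counts was the wider in both tables. The share of all counts on family 1 moved with the level in HS_SCR rats, at 39.8% in replicate 1 and 27.4% in replicate 3, and its part in the levels was not tested. The ranges of animal numbers in the titles also separated HS_SCR rats, and what a range stands for is not stated. Animals 781 to 785 averaged 13.5% in HS_DT (n = 3) and 18.2% in HS_SCR rats (n = 2). Animals 858 to 871 averaged 12.4% in HS_DT (n = 1), 9.70% in HS_SCR (n = 2) and 10.9% in 0.4% salt rats (n = 4). The order of HS_SCR and 0.4% salt rats within that range was thus opposite to that over all rats. Animals 1155 to 1184 averaged 10.4% in MCW HS and 5.87% in MCW LS rats (n = 2 each), and animals 1245 to 1249 averaged 12.1% in MCW HS (n = 2) and 14.7% in the MCW LS rat. All CRL rats fell in 1 range.

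The spread between rats at a single family 1 CpG was far above counting error. The median SD within groups was 3.53 points in the 12-rat table, where binomial error alone gives 0.353. Outside family 1 it was 1.68 points against 1.04. At levels of 10 to 20% it was 3.95 points in family 1, 2.30 in the other members and 5.95 at the other sites, whose median depth was 64 counts and whose counting error alone was 4.52. With binomial variance subtracted these became 3.90, 1.88 and 3.74 points. At 20 to 30% family 1 stood at 5.67 points against 4.44 at the other sites, and at 30 to 40% at 10.1 against 4.77. The latter bin holds only 75 family 1 CpGs, copies included. The 0 to 10% bin gave 2.16 against 0 points, but levels are not matched within it. There 619023 of 650458 other sites lay under 5%, against 428 of 2269 in family 1. In the table of MCW and CRL rats, family 1 was lower than the other sites at 10 to 20%, with 4.39 against 5.38 points. Family 1 was higher in that table at 0 to 10% (2.50 against 0), 20 to 30% (6.84 against 6.27) and 30 to 40% (9.25 against 6.37, from 30 family 1 CpGs). By group, the median SD in family 1 was 2.66 in HS_DT, 5.09 in HS_SCR and 1.79 in 0.4% salt rats. In the other experiment it was 4.59 in MCW HS, 4.99 in MCW LS, 2.93 in CRL HS and 1.51 in CRL LS rats.

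**Figure D4:**
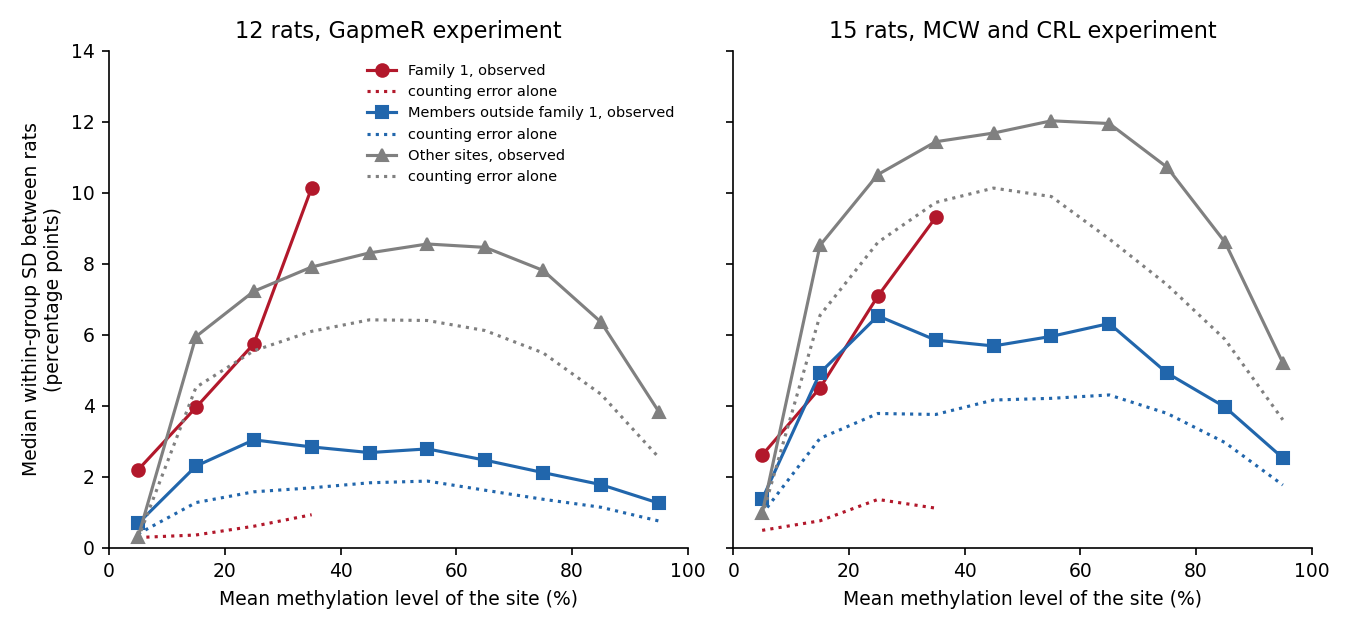
Median SD between rats within groups (percentage points) against the mean methylation level of the site (%), in bins of 10 points, for family 1 (circles), other members (squares) and other autosomal sites (triangles), with the SD that counting error alone gives as dotted lines. The dotted line of family 1 lies near 0 while its observed spread rises to 10.1 points at 30 to 40% in the 12-rat table. That bin holds only 75 family 1 CpGs, copies included. Members outside family 1 stay at 3.04 points or less in that table.

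The CpGs of largest spread among members of 20 to 80% were copies of each other. The CpGs at 13559831 of chromosome 1 and 46824389 of chromosome 14 held equal counts in every library. HS_DT rats had 18.2, 32.1, 31.9 and 48.9%. HS_SCR rats had 39.3, 46.8, 6.65 and 20.6%. Rats on 0.4% salt had 34.8, 28.2, 24.4 and 38.7%. The SD within groups was 13.3 points, against 1.74 from counting, and all groups overlapped. At the other end, the CpG at 44400956 of chromosome 1 had an SD of 0.484 points at a level of 78.5%. Counting alone gives 0.787 there, so this smallest value lies below counting error.

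The first comparison asks how a week of high salt with the scrambled GapmeR differs from the state before. Family 1 averaged 13.9% ± 5.11 in HS_SCR rats and 10.9% ± 1.80 in 0.4% salt rats (SD, n = 4 each), a difference of 3.03 points with an SE of 2.71, within the spread. Within animal numbers 858 to 871 it was the other way, with 9.70% in HS_SCR (n = 2) and 10.9% in 0.4% salt rats (n = 4). HS_SCR was higher in 11 of 16 pairs of rats. Of 6433 family 1 CpGs tested, 94.5% were higher in HS_SCR, with a median difference of 3.25 points, against 0.0235 points over all 526526 sites tested. These CpGs rise and fall together in each rat, so their number adds little to 4 rats against 4. Without HS_SCR replicate 1 or 2 the difference was 1.43 or 1.80 points, and without replicate 3 it was 5.01.

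In a quasi-binomial model of the counts with limma-moderated dispersion, 0 of 12992 members passed (adjusted p below 0.05), where 0% of all sites did. At an unadjusted p below 0.05 there were 2027 members, or 15.6% where the share over all sites was 5.44%. Of these, 2000 were higher in HS_SCR (15.4% of members, against 2.85% of all sites). By limma on log ratios 0 passed and 119 had an unadjusted p below 0.05 (0.916% of members, against 4.64% of all sites). The high share thus depended on the model. The member of smallest p was the family 1 CpG at 46834616 of chromosome 14. It had 15.2, 12.8, 9.76 and 21.7% in HS_SCR rats, against 5.28, 7.14, 0.815 and 6.12% in 0.4% salt rats, and the groups did not overlap (adjusted p = 0.765 in the quasi-binomial model). HS_DT rats there had 25.6, 2.14, 4.25 and 7.02%.

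The GapmeRs against Dnmt3a and Tet3 were set against the scrambled one. Family 1 averaged 13.2% ± 2.52 in HS_DT and 13.9% ± 5.11 in HS_SCR rats (SD, n = 4 each), a difference of -0.739 points with an SE of 2.85. Without HS_SCR replicate 1 or 2 the sign turned, to 0.860 or 0.488 points. In the quasi-binomial model 0 of 13055 members passed (0% of all sites), and 0 by limma. At an unadjusted p below 0.05 there were 128 members, or 0.98% against 4.92% of all sites. By limma there were 5 (0.0383% of members, against 4.62% of all sites). The member of smallest p, at 82937676 of chromosome 7 in family 2, averaged 61.0% ± 2.27 in HS_DT and 51.2% ± 3.65 in HS_SCR rats (adjusted p = 0.985, quasi-binomial model). Its 0.4% salt rats averaged 58.5% ± 2.62.

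Against the state before treatment, HS_DT rats were higher in family 1 by 2.29 points (SE 1.55; 13.2% ± 2.52 in HS_DT and 10.9% ± 1.80 in 0.4% salt rats), in 12 of 16 pairs. The median over 6314 family 1 CpGs was 2.34 points, against 0.0343 over all sites tested. Both GapmeR groups are compared with the same 4 rats here. In the quasi-binomial model 0 of 12861 members passed (0% of all sites), and 1424 had an unadjusted p below 0.05 (11.1% against 5.61% of all sites). By limma 0 passed, with 14 at that p (0.109% of members, against 5.12% of all sites). Without HS_DT replicate 4 the difference was 1.07 points.

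The other experiment asked how MCW and CRL rats respond to salt. Family 1 averaged 11.3% ± 4.62 in MCW HS (SD, n = 4) and 8.82% ± 5.14 in MCW LS rats (n = 3), a difference of 2.45 points with an SE of 3.76. It was 5.40 points without MCW LS replicate 3 and 0.739 without MCW LS replicate 1. Of 12270 members, 9 passed the quasi-binomial test (0.0733%, against 0.089% of all sites), all 9 lower in MCW HS (0.0733% of all sites were called lower) and all outside family 1. At an unadjusted p below 0.05 there were 571 (4.65%, against 6.33% of all sites). Limma on log ratios called 0, with 58 at an unadjusted p below 0.05 (0.473% of members, against 5.34% of all sites).

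These 9 members lay on 7 chromosomes. Of them 7 fell into 2 count patterns, with 4 CpGs at 77105880 of chromosome 1, 85927133 of chromosome 5, 15591761 of chromosome 15 and 5354284 of chromosome 18. The other 3 CpGs lay at 177744846 of chromosome 2, 45840695 of chromosome 7 and 58234838 of chromosome 15. No 2 of these 7 shared a cluster, yet in each rat their levels lay within 5.12 points of each other.

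Averaged over the 7, MCW HS rats had 14.7, 1.32, 4.08 and 13.8%, against 8.99, 75.8 and 36.5% in MCW LS rats. CRL HS rats had 48.6, 29.9, 67.7 and 13.6%, against 17.9, 23.2, 36.1 and 20.4% in CRL LS rats. The level thus ranged from 1.32 to 75.8% between inbred rats, and 1 MCW LS rat lay within the range of the MCW HS rats. In the GapmeR experiment HS_DT rats had 21.5, 26.4, 15.8 and 37.3%, HS_SCR rats 14.6, 20.2, 18.9 and 22.8%, and 0.4% salt rats 14.2, 12.7, 10.7 and 14.5%. Both high-salt groups there thus lay above the 0.4% salt rats, whereas MCW HS rats averaged below MCW LS rats.

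Depth at these 7 CpGs was greatest in the rats of highest level. The mean count was 16.7 times the library median in MCW LS replicate 2 and 11.5 times in CRL HS replicate 3, the rats of highest level, and 2.62 to 6.24 times in the other 13 rats. Scaled by the library median, methylated counts ran from 0.0544 to 12.7 over the 15 rats, a ratio of 233. Unmethylated counts ran from 2.01 to 4.08, a ratio of 2.03. In the 12 rats the ratios were 5.99 and 1.39, with HS_DT replicate 4 highest in both. The rats of high level had more methylated counts rather than fewer unmethylated ones. The part of depth in these levels was not tested.

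**Figure D5:**
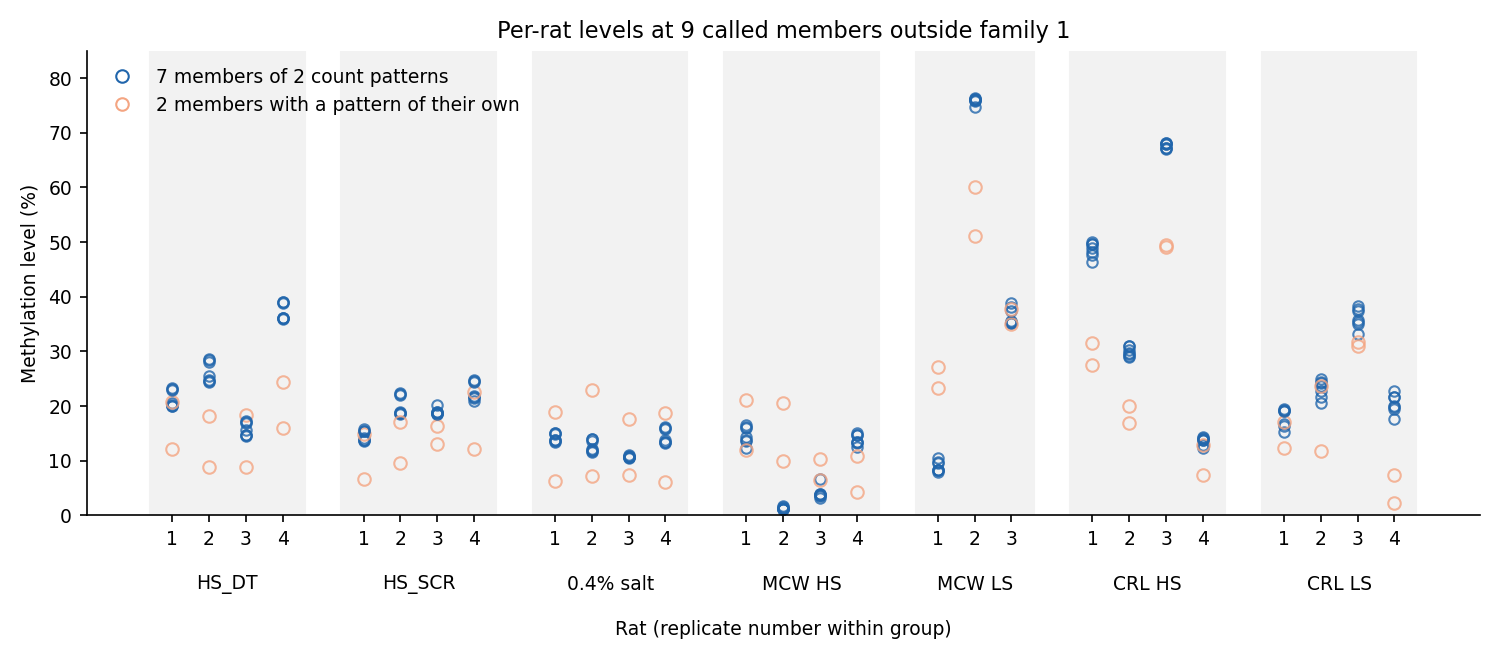
Methylation level (%) of 9 members outside family 1 in each of the 27 rats, set out by group and replicate number, with blue for 7 CpGs of 2 count patterns and orange for 2 CpGs with patterns of their own. The blue circles of a rat nearly coincide, and MCW LS replicate 2 (75.8%) and CRL HS replicate 3 (67.7%) stand above the other rats.

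The remaining 2 CpGs, at 138167444 of chromosome 2 and 50697755 of chromosome 9, belonged to another family. At 138167444 of chromosome 2 MCW HS rats had 21.1, 20.5, 10.2 and 10.8%, against 27.2, 51.2 and 35% in MCW LS rats, without overlap (adjusted p = 0.0275, quasi-binomial model). At 50697755 of chromosome 9 MCW HS rats had 11.9, 9.88, 6.38 and 4.21%, against 23.3, 60 and 37.7% in MCW LS rats, and the groups did not overlap (difference -32.2 points, adjusted p = 0.00508, quasi-binomial model). Among the 7 CpGs above the groups overlapped, as at 77105880 of chromosome 1, with 7.42% ± 5.78 in MCW HS (SD, n = 4) and 39.4% ± 33.5 in MCW LS rats (n = 3). Its adjusted p was 0.00508 in the quasi-binomial model with limma-moderated dispersion. All 9 calls were lost without MCW LS replicate 2, and 88 members passed without MCW LS replicate 3 (0.726%, against 0.214% of all sites in that fit), 77 of them higher in MCW HS. The column of MCW LS replicate 2 carries the mark RP, while the titles put that mark on replicate 1, and its meaning is not stated.

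In CRL rats family 1 averaged 13.4% ± 2.84 in CRL HS and 11.5% ± 1.009 in CRL LS rats (SD, n = 4 each), a difference of 1.94 points with an SE of 1.505, or 0.677 points without CRL HS replicate 3. Here 11 of 12401 members passed (0.0887%, against 0.0147% of all sites), all higher in CRL HS and all in family 1. At an unadjusted p below 0.05 there were 1358 (11%, against 7.41% of all sites). Limma called 0, with 69 at that p (0.556% of members, against 6.06% of all sites). The 11 called members fell into 2 patterns on 4 chromosomes. At 13559018 of chromosome 1 CRL HS rats had 18.4, 21.1, 41.2 and 11%, against 10.2, 8.13, 9.36 and 18.1% in CRL LS rats, and the groups overlapped (adjusted p = 0.0383, quasi-binomial model). At 46832807 of chromosome 14 CRL HS rats had 10.8, 13.2, 26.5 and 5.42%, against 5.35, 4.52, 4.81 and 5.01% in CRL LS rats, without overlap. At both CpGs CRL HS replicate 3 was highest, and without it, or without CRL LS replicate 1, 2 or 3, 0 members passed. Without CRL HS replicate 4 there were 147 (1.18%, against 0.198% of all sites in that fit).

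MCW and CRL rats were compared on each diet. On low salt, where base diets differ, family 1 averaged 8.82% ± 5.14 in MCW LS (SD, n = 3) and 11.5% ± 1.009 in CRL LS rats (n = 4), a difference of -2.69 points with an SE of 3.01. The quasi-binomial model called 0 of 12116 members (0.0172% of all sites called), with 960 at an unadjusted p below 0.05 (7.92% against 6.44% of all sites). Limma called 0 (0.000614% of all sites), with 348 at that p (2.87% of members, against 5.46% of all sites). The family 1 CpG at 39262128 of chromosome 6 had the smallest p. Its levels were 6.29, 7.88 and 16.1% in MCW LS rats, against 17.9, 26.5, 26.7 and 27.6% in CRL LS rats, without overlap (adjusted p = 0.0581, limma-moderated quasi-binomial model). This count rested on 1 rat, since without MCW LS replicate 3 there were 4042 members (34%, against 3.18% of all sites in that fit), 4020 of them lower in MCW LS.

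On high salt and the same diet, family 1 averaged 11.3% ± 4.62 in MCW HS and 13.4% ± 2.84 in CRL HS rats (SD, n = 4 each), a difference of -2.18 points with an SE of 2.71, or -0.272 without MCW HS replicate 1. Of 12473 members 17 passed (0.136%, against 0.0648% of all sites), all lower in MCW HS (0.0618% of all sites were called lower). At an unadjusted p below 0.05 there were 540 (4.33%, against 6.21% of all sites). Limma called 0 (0.000606% of all sites), with 166 at that p (1.33% of members, against 5.39% of all sites). The 17 comprised the 7 dispersed CpGs above and 10 of family 1, and they fell into 4 count patterns. Members of a pattern are near-identical in count and level, so the share called counts copies as separate sites. At 15591761 of chromosome 15, MCW HS rats had 13.6, 1.08, 3.19 and 13.3%, against 47.6, 29.5, 67.3 and 13.7% in CRL HS rats (adjusted p = 0.000988, quasi-binomial model). Without CRL HS replicate 3, 0 members passed, and without MCW HS replicate 2 there were 27 (0.218%, against 0.0601% of all sites in that fit).

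Whether salt acted differently in MCW and CRL rats was tested as an interaction. It passed at 16 of 12370 members (0.129%, against 0.0907% of all sites), all with a lower effect in MCW rats (0.0852% of all sites were called lower). At an unadjusted p below 0.05 there were 275 (2.22%, against 5.9% of all sites). Limma called 0, with 87 at that p (0.703% of members, against 5.07% of all sites). The 16 fell into 4 count patterns, with 8 copies of 1 pattern in family 1 on 4 chromosomes and 8 dispersed CpGs of 3 patterns. Here too the share called counts copies as separate sites. At 77105880 of chromosome 1 the salt effect was -31.9 points in MCW rats (7.42% in MCW HS and 39.4% in MCW LS) and 17.1 in CRL rats (38.8% in CRL HS and 21.7% in CRL LS), so that it was 49.1 points lower in MCW rats (-49.1, adjusted p = 0.00600, quasi-binomial model). In the GapmeR experiment, also of MCW SS rats, the order at this CpG was the opposite. It averaged 23.8% ± 9.11 in HS_DT, 18.1% ± 3.35 in HS_SCR and 12.3% ± 1.43 in 0.4% salt rats (SD, n = 4 each). The same 15 rats stand behind the calls of the preceding comparisons. Without MCW LS replicate 2 or CRL HS replicate 3, 0 members passed. Without MCW HS replicate 3 there were 7 (0.0569%, against 0.0438% of all sites in that fit), and without CRL LS replicate 2 also 7 (0.0566% against 0.042%). Without CRL LS replicate 3 there were 9 (0.0726% against 0.0601%). Over all 5 comparisons of these 15 rats, 22 members of 7 count patterns were called, 13 of the members in family 1.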

How the data were processed

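The deposited tables give, for each CpG and library, counts of methylated (C) and unmethylated (T) reads made by the authors. Trimming used Trim Galore 0.2.5 and the build was rn5, per the submitters' processing notes. The sources used here name neither the aligner nor its treatment of reads with several matches.

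Levels are 100 x C/(C+T), and set levels are unweighted means over sites. Members, families and named sites were chosen with earlier results of these data known. Spacing families join clusters (neighbours within 1000 bp) that share a run of 8 distances between 9 listed CpGs, each at most 200 bp. Each site was tested by quasi-binomial logistic regression (numpy 2.4.6, scipy 1.17.1) with dispersion moderated by limma 3.58.1 (R 4.3.3), a two-sided F test, over sites with 10 or more counts in every library of the table and a pooled level of 5 to 95%. P-values were Benjamini-Hochberg adjusted over all such sites, with a threshold of 0.05. The scripts were tested on simulated data. Limma on log2((C+1)/(T+1)), other count minimums and depth multiples, blocks and leaving out libraries were alternatives.

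The sites named are the 6 largest clusters and patterns, the 3 of greatest depth, 3 on either side of the depth threshold, 3 of largest and of smallest SD, and per comparison up to 2 called members per direction, or the member of smallest p. The text gives some of these and, chosen after their values were seen, the deepest stretch and the dispersed called CpGs. Groups follow the labels, and 1 library is 1 rat. PCR duplicates cannot be told from molecules, so counting errors cover read sampling only.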

Additional observations from a re-analysis of the deposited data

Results flagged for a closer look

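The difference between the salt effects of MCW and CRL rats passed the quasi-binomial interaction test at 16 of 12370 members (0.129%, against 0.0907% of all sites), all with the lower effect in MCW rats. By limma 0 passed, with 87 at an unadjusted p below 0.05 (0.703%, against 5.07% of all sites). In the quasi-binomial model 0 passed without MCW LS replicate 2 or without CRL HS replicate 3. The 16 comprise 8 copies of 1 family 1 count pattern on chromosomes 1, 5, 6 and 14, and 8 CpGs of 3 patterns outside family 1. At 45840695 of chromosome 7 the difference of effects was -47.0 points (adjusted p = 0.00738, quasi-binomial model). Levels there averaged 8.94% in MCW HS and 40.9% in MCW LS rats, and 40.7% in CRL HS and 25.7% in CRL LS rats. In the GapmeR experiment the high-salt MCW SS rats were higher there instead, with 26.9% in HS_DT and 20.2% in HS_SCR against 13.9% in 0.4% salt rats. The CRL arms also differ in base diet.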

How the results depend on the processing

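Over 316 alternatives, 39 moved a result beyond its tolerance (a count by over 1.5 times, a level by over 1 SD) and 277 did not. Among the 277, 5 turned the sign of an uncalled difference, all for HS_DT vs HS_SCR without 1 library. Calls of members in the 15-rat table were the least stable. Without the filter on pooled level, by limma, or with a replicate block, the members called were 0 for MCW HS vs MCW LS (main 9), 0 for CRL HS vs CRL LS (main 11) and 0 for MCW HS vs CRL HS (main 17). The interaction (main 16) gave 0 without that filter and by limma, and 16 with the replicate block (0.129%, against 0.0675% of all sites). Without the libraries with RP in the column name it gave 0, as did the salt comparisons of MCW and of CRL rats. In MCW LS rats that column is replicate 2, while the titles put RP on replicate 1. Without replicate 1, 13 were called for MCW HS vs MCW LS (0.105%, against 0.163% of all sites). With 20 or more counts in every library, CRL HS vs CRL LS gave 0. MCW LS vs CRL LS then gave 8 (main 0), or 0.0686% against 0.131% of all sites. With the range of animal numbers as a block, 8 were called for MCW HS vs MCW LS (0.0652%, against 0.0248% of all sites). That block gave 15 for the interaction (0.121%, against 0.0657% of all sites). Leaving out 1 library at a time gave 0 in each of the 3 comparisons of the GapmeR experiment. Elsewhere counts ranged, and shares of members and of all sites are given for the highest count. They were 0 to 88 for MCW HS vs MCW LS (0.726% against 0.214%) and 0 to 147 for CRL HS vs CRL LS (1.18% against 0.198%). For MCW LS vs CRL LS they were 0 to 4042 (34% against 3.18%). For MCW HS vs CRL HS they were 0 to 27 (0.218% against 0.0601%), and for the interaction 0 to 22 (0.179% against 0.138%). The cause was not tested. Same-numbered rats did not deviate together (correlations of -0.113 to 0.0583 over 26 pairs, 0 of them over 0.1), and what the numbers stand for is not stated. The mean level of members differed by 1.245 points for HS_SCR vs 0.4% salt (0.499 to 2.09 without 1 library), by 3.22 when weighted by reads, and by -0.277 for HS_DT vs HS_SCR (-1.12 to 0.469; -1.59 weighted). It differed by 0.968 for HS_DT vs 0.4% salt (0.440 to 1.28; 1.62 weighted), 1.15 for MCW HS vs MCW LS (0.285 to 2.43) and 1.07 for CRL HS vs CRL LS (0.434 to 1.46). For MCW LS vs CRL LS it was -1.12 (-2.40 to -0.249), and for MCW HS vs CRL HS -1.03 (-1.63 to -0.0714). The number of members was 34935 at 3 times the median, 8678 at 10 times, 8194 against the library mean and 15535 to 17065 without 1 library. Members deep in the 15-rat table numbered 7409 to 8235 without 1 library. Median spread was 2.14 to 2.41 points in the 12-rat and 3.43 to 3.84 in the 15-rat table. Patterns numbered 4370 with counts within 10% and levels within 5 points. In alternatives chosen after seeing the data, family 1 held 6844 members with runs of 6 distances and 6833 with runs of 10.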

Other observations

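On chromosome X, 562 of 30915 sites (1.82%) passed the same multiple of the autosomal median, against 1.30% of autosomal sites. Their mean level was 76.3% ± 0.245 (SD over 12 rats), above the 62.9% of the autosomal members outside family 1. Families 2 to 10 were set side by side in the 7 comparisons, and in 4 of these 63 cases the groups did not overlap. How many cases would separate without any group difference was not computed, so the 4 are described and not read as group effects. Family 10, 84 members in 15 clusters on 9 chromosomes, averaged 85.2% in HS_DT and 83.9% in HS_SCR rats (n = 4 each). The difference was 1.27 points (SE 0.550), with HS_DT higher in 16 of 16 pairs of rats. Rats on 0.4% salt averaged 84.99%. Family 7 averaged 70.1% in MCW LS and 68.5% in CRL LS rats, and family 8 averaged 17.8% in MCW LS and 18.9% in CRL LS rats. Family 4 averaged 83.9% in MCW HS and 84.7% in CRL HS rats. These cases were picked after the values were seen, so no test is given.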
